A study of Homo sapiens with 12 samples.

Results

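A set of 10 plasma cell programme genes was followed through the EZH2 and KMT2D mutants of the diffuse large B-cell lymphoma line OCI-Ly7. They were chosen by name as rows of the count table, 10 of 28278 genes: the regulators PRDM1, IRF4 and XBP1, the receptors TNFRSF17, TNFRSF13B and CD27, the secretory genes MZB1 and JCHAIN, the surface proteoglycan SDC1 and the kinase PIM2. Of these, 9 had a count in any library and 8 passed the filter on low counts. The wild type line (3 libraries) was the parent of 3 CRISPR lines: one labelled EZH2 Y646N and gain of function (2 libraries), one labelled kmt2d-/- and loss of function (3 libraries), and a double mutant labelled with both genotypes (3 libraries). They are called the EZH2 mutant, the KMT2D mutant and the double mutant here. All were untreated and grown in IMDM with serum, and every line carries whatever other mutations the OCI-Ly7 background holds. The third EZH2 mutant library named in the labels was not analysed here. The labels do not say whether each mutant line is 1 clone, nor whether replicates were separate cultures, so p-values measure the spread between these libraries, which may be technical, and a difference between lines cannot be told apart from a difference between clones.

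A B cell that becomes a plasma cell turns on PRDM1 (Blimp-1), a repressor of B cell genes, together with IRF4, and then XBP1, which widens the endoplasmic reticulum for antibody secretion. BCL6 and PAX5 oppose this step in the germinal centre, the stage from which many such lymphomas arise. EZH2 deposits the repressive mark H3K27me3, and KMT2D deposits the enhancer mark H3K4me1; both are often mutated in germinal centre lymphoma.

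The 11 libraries held 1118710 to 3107871 counts each, and EZH2 mutant replicate 1 was the shallowest. Counts of the targeted genes do not check the genotypes, since a point mutation and a frameshift can leave the transcript: EZH2 had 53 to 151 counts in the 2 EZH2 mutant libraries and 124 to 250 in wild type, and KMT2D had 61 to 135 counts in the KMT2D mutant and 48 to 130 in wild type. All 8 B cell markers checked, among them MS4A1, CD79A, CD79B, CD22 and CD74, were detected, with a summed level of 13350 to 23310 CPM (counts per library, scaled to a common library size). The 9 T and NK cell markers in the table summed to at most 1.62 CPM per library, with CD3D, CD8A and CD2 at 0 throughout. The 8 myeloid markers summed to at most 1.85 CPM and the 8 stromal and epithelial ones to at most 1.41 CPM, with 5 of 8 at 0 throughout in each set (CSF1R, S100A8, S100A9, FCN1 and MPO; COL1A2, DCN, LUM, KRT18 and KRT19).

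The members called lower in the double mutant than in the KMT2D mutant (IRF4, XBP1, PIM2 and TNFRSF13B) are shown here by the sequence before their start, as genes that fell in the same comparison. Each window is the RefSeq stretch of up to 250 bases upstream of the start in GRCh38.p14, cut where a GENCODE 29 transcript already begins, and printed 5′ to 3′ on the gene's strand. Capitals mark matches to 4 of the motifs searched on both strands, the CCAAT box (CCAAT), its partner CCACG, the ER stress response element (CCAAT, then 9 bases of any kind, then CCACG, so that it holds both of these) and the octamer (ATGCAAAT). The windows are chr6:391502-391738, plus strand, for IRF4, chr22:28800598-28800819, minus strand, for XBP1, chrX:48919025-48919274, minus strand, for PIM2, and chr17:16972119-16972368, minus strand, for TNFRSF13B.
IRF4: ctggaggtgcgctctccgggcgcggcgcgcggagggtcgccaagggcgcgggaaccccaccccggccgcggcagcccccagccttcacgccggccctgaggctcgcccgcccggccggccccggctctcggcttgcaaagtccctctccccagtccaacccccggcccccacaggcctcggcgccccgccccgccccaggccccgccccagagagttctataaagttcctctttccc
XBP1: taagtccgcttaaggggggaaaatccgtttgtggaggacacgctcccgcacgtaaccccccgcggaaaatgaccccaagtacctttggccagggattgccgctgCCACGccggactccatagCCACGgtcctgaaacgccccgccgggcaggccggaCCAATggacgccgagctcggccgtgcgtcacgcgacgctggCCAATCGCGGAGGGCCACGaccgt
PIM2: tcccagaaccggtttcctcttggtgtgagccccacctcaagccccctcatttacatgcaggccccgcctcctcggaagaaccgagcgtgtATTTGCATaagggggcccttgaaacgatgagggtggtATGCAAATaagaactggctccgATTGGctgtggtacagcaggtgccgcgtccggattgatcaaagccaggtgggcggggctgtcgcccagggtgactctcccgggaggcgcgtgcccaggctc
TNFRSF13B: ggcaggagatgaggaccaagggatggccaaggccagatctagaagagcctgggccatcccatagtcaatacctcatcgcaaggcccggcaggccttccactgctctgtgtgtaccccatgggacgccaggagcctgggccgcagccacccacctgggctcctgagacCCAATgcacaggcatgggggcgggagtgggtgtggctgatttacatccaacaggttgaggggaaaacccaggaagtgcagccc
The XBP1 window held 1 ER stress response element, a motif found in 26 of 35116 RefSeq promoter windows (0.074%; shares here are over the full 250 bases upstream, uncut, while the IRF4 and XBP1 windows printed are shorter), and 2 CCAAT boxes and 3 CCACG matches in all. RefSeq holds a second XBP1 window, chr22:28800078-28800327, minus strand, which is not printed here. It had 2 CCACG matches and none of the other motifs searched. PIM2 had 2 octamers, the site read by the octamer factors POU2F1 and POU2F2, a motif present in 573 windows (1.63%), and 1 CCAAT box. TNFRSF13B had 1 CCAAT box, which 32.0% of windows hold, against 33.5% for CCACG. The other motifs searched had no match in the 4 windows: the E-box (CACGTG, in 6.34% of windows), the core of the cAMP response element (TGACGT, 7.1%), the NF-kB site (9.96%), the interferon-stimulated response element (3.02%), the Ets-IRF composite element (2.41%) and the PRDM1 core (0.886%). IRF4 had none of the motifs searched, in a window of 76.8% GC against a median of 58.0% over all windows. The octamer and the full element were added after these promoters had been read, and a match is a string of letters, not a bound site.

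PRDM1 and SDC1, the defining regulator and surface marker of plasma cells, were at or near 0 in all 4 lines. The wild type libraries had 0, 5 and 5 counts of PRDM1, the EZH2 mutant ones 0 and 2, the KMT2D mutant ones 7, 2 and 2, and the double mutant ones 3, 2 and 2. That is between 0 and 2.13 normalised CPM, the counts divided by the library size after TMM scaling, and the lines overlapped. The 2 counts of the EZH2 mutant against the 10 of wild type give a level 2.36-fold lower, with a 95% counting interval from 0.502 to 22.1, so that no difference was detectable at this depth. SDC1 (syndecan-1, CD138), the proteoglycan used to sort plasma cells, had no count in any library, which allows up to 0.428 CPM in wild type, 0.908 in the EZH2 mutant, 0.431 for the KMT2D mutant and 0.567 for the double mutant. These limits cover counting error only, and a gene whose 3′ end lies outside the authors' annotation would also read 0: SPCS1, a signal peptidase subunit that secreting cells use, had 0 to 3 counts per library.

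IRF4, the transcription factor needed for both germinal centre entry and plasma cell formation, was lower in both lines that carry EZH2 Y646N. The wild type libraries read 321.9, 374.7 and 310.1 normalised CPM and the EZH2 mutant ones 175.1 and 242.3. KMT2D mutant libraries read 316.5, 284.0 and 323.2, and double mutant ones 252.2, 241.7 and 235.4. All 5 libraries with EZH2 Y646N lay below all 6 libraries without it. The mean was 335.6 ± 34.4 in wild type (SD, n = 3), 307.9 ± 21.0 in the KMT2D mutant (n = 3), 243.1 ± 8.49 in the double mutant (n = 3) and 208.7 ± 47.5 in the EZH2 mutant (n = 2). In that order, the KMT2D and double mutants differed, while wild type against the KMT2D mutant (adjusted p = 0.641) and the double against the EZH2 mutant (adjusted p = 0.535) did not pass the test. The log2 fold change against wild type was -0.67 in the EZH2 mutant (SE 0.15, adjusted p = 0.00229) and -0.47 in the double mutant (SE 0.13, adjusted p = 0.014), and against the KMT2D mutant it was -0.34 in the double mutant (SE 0.13, adjusted p = 0.0421). In these bulk libraries, fewer cells that express a gene and less RNA per cell cannot be told apart. Without EZH2 mutant replicate 1, the library with the lowest IRF4 level, the change in that line was -0.46 with an adjusted p of 0.0544. The change in the double mutant had an adjusted p of 0.0667 without wild type replicate 2, and its difference from the KMT2D mutant lost its call when any of 5 libraries was left out (KMT2D mutant replicate 1 or 3, adjusted p = 0.117 and 0.134; double mutant replicate 1, 2 or 3, adjusted p = 0.0627, 0.0988 and 0.0988).

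XBP1, the transcription factor that drives the secretory apparatus, differed between the KMT2D and double mutants. From replicate to replicate, wild type read 342.3, 352.9 and 530.6 normalised CPM, the EZH2 line 365.6 and 367.4, the KMT2D line 481.3, 504.8 and 476.0 and the double mutant line 326.2, 359.5 and 404.5. Wild type replicate 3 stood above every other library, so that wild type overlapped all of the mutants. The double mutant was lower than the KMT2D mutant by a log2 fold change of -0.42 (SE 0.15, adjusted p = 0.027), with no overlap. The call was lost without any 1 of the KMT2D mutant libraries (adjusted p = 0.0578, 0.0669 and 0.0577 for replicates 1, 2 and 3) and without double mutant replicate 1 or 2 (0.119 and 0.0718). No mutant differed from wild type: the log2 fold change was -0.16 in the EZH2 mutant (95% interval -0.48 to 0.17), 0.25 for the KMT2D mutant (-0.03 to 0.54) and -0.17 for the double mutant (-0.46 to 0.12). Without wild type replicate 3, the KMT2D mutant was higher than wild type by 0.49 (adjusted p = 0.0319), and the values of the EZH2 and double mutants became 0.08 and 0.06, still not past the threshold.

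The active XBP1 protein is made only after the kinase and nuclease IRE1 removes 26 bases from the transcript. The stretch is printed from the GENCODE 29 transcripts XBP1-201, which has it, and XBP1-202, which lacks it, with the removed bases in capitals.
XBP1-201: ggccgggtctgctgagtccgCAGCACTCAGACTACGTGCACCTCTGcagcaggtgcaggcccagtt
It lies 1258 bases before the 3′ end of XBP1-201. MARS-seq counts come from the 3′ ends of transcripts, so the XBP1 values above are the sum of spliced and unspliced RNA.

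TNFRSF17 (BCMA), a receptor for the survival ligands APRIL and BAFF on plasma cells, was lower in the EZH2 mutant than in wild type. Wild type held 24.33, 46.24 and 36.42 normalised CPM, the EZH2 mutant 3.07 and 9.43, the KMT2D mutant 11.58, 24.84 and 25.66, and the double mutant 3.95, 21.15 and 17.43. Every EZH2 and double mutant library was below every wild type one, and the KMT2D mutant overlapped wild type. The log2 fold change was -2.34 in the EZH2 mutant (SE 0.64, adjusted p = 0.0171), resting on 22 counts in 2 libraries. In the double mutant it was -1.43 (SE 0.49, adjusted p = 0.0537) and in the KMT2D mutant -0.85 (SE 0.44, adjusted p = 0.301). From the mean levels the order was wild type, KMT2D mutant, double mutant and EZH2 mutant, and no neighbours in it differed past the threshold. The EZH2 call was not made without EZH2 mutant replicate 1 (-1.93, adjusted p = 0.121) or replicate 2 (-3.59, adjusted p = 0.0579), where the lone library is assumed to vary like the other lines, nor by limma-voom (adjusted p = 0.079). The double mutant passed the threshold under 8 of 19 alternatives, with adjusted p from 0.000121 to 0.149 over all of them. The 8 include the fit without KMT2D mutant replicate 1, a library outside that comparison. The antisense gene NPIPB2 overlaps TNFRSF17 and had 3 to 12 counts per library. Whether the counting used strand was not given in the sources used here.

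TNFRSF13B (TACI), the other APRIL and BAFF receptor of this set, was nearly absent from the double mutant. Its levels were 12, 22 and 5 counts for wild type, 10 and 17 for the EZH2 mutant, 10, 9 and 20 for the KMT2D mutant, and 0, 2 and 2 for the double mutant. The double mutant lay below every library of the other lines. Its 4 counts make it 7.36-fold lower than wild type (95% counting interval 2.66 to 28.4), 10.8-fold lower than the EZH2 mutant (3.77 to 42.5) and 7.41-fold lower than the KMT2D mutant (2.67 to 28.5). The fitted log2 fold changes were -2.66 (SE 0.77, adjusted p = 0.0163), -3.43 (SE 0.80, adjusted p = 0.0252) and -2.68 (SE 0.77, adjusted p = 0.00885) in that order. Neither single mutant differed from wild type (0.77 with an interval of -0.31 to 1.84 in the EZH2 mutant; 0.02 with -0.95 to 0.98 in the KMT2D mutant). The interaction, which asks whether the double mutant differs from the sum of the single changes on the log2 scale, was -3.44 (SE 0.96, adjusted p = 0.0562) and did not pass. It passed without wild type replicate 2 (adjusted p = 0.0432), without KMT2D mutant replicate 1 (0.041) and with no filter on low counts (0.00314).

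TBC1D27P, a transcribed pseudogene on the same strand, overlaps TNFRSF13B in GENCODE 29, so that the authors' counting could have split reads between them and the values of both are uncertain. From replicate to replicate, wild type read 43, 78 and 47 counts, the EZH2 line 25 and 42, the KMT2D line 51, 31 and 57 and the double mutant line 2, 3 and 4. The double mutant again lay below all other libraries, by a log2 fold change of -3.64 against wild type (SE 0.37, adjusted p = 1.23e-06), -3.63 against the EZH2 mutant (SE 0.42, adjusted p = 2.11e-05) and -3.38 against the KMT2D mutant (SE 0.38, adjusted p = 1.55e-06). Its interaction passed, at -3.37 (SE 0.49, adjusted p = 0.000394). TBC1D27P was looked at after the values of TNFRSF13B had been seen. The call of TNFRSF13B against wild type was lost without wild type replicate 2 (adjusted p = 0.0808), without double mutant replicate 1 (0.0944) and by limma-voom (0.0515), and that against the KMT2D mutant without double mutant replicate 1 (0.0564). Against the EZH2 mutant it was lost without EZH2 mutant replicate 1 (0.0876) or 2 (0.0926), without double mutant replicate 1 (0.084) or 3 (0.0817), with a replicate block (0.0668) and by limma-voom (0.0602).

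**Figure D1:**
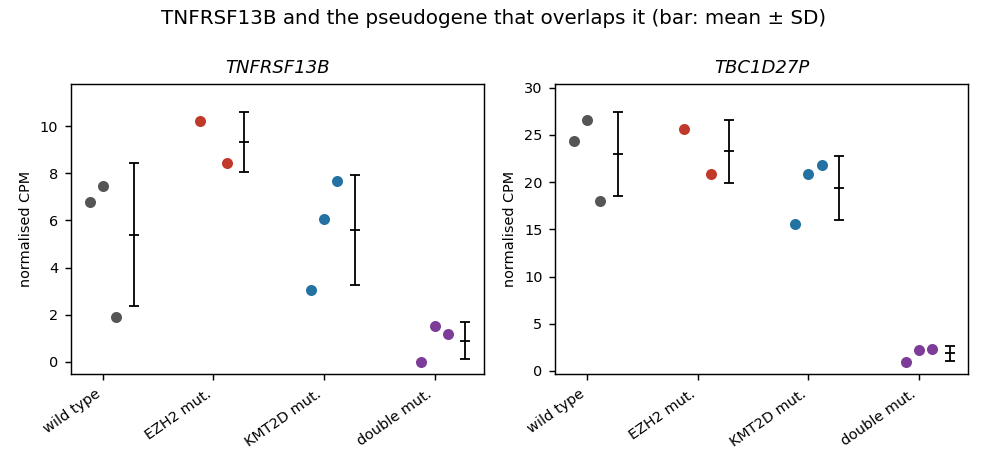
Normalised CPM of TNFRSF13B and of the pseudogene TBC1D27P that overlaps it, per library in the 4 lines; bars give the mean and SD of each line. In both panels the 3 double mutant libraries lie below the 8 others, at 0 to 1.51 CPM for TNFRSF13B and 0.987 to 2.33 CPM for TBC1D27P.

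CD27, the receptor for CD70 that marks memory B cells and plasma cells, passed no test in the reported fit. Wild type libraries held 123.3, 108.1 and 113.5 normalised CPM, EZH2 mutant libraries 148.5 and 99.78, KMT2D mutant libraries 77.07, 111.4 and 89.22 and double mutant libraries 93.76, 87.61 and 93.57. The double mutant libraries all lay below the wild type ones, with a log2 fold change of -0.32 (interval -0.64 to -0.00). The F test gave an unadjusted p of 0.0611 and an adjusted p of 0.16 for it. With upper-quartile factors this change was called, at -0.43 (adjusted p = 0.0453). The other changes against wild type were 0.09 in the EZH2 mutant (-0.27 to 0.44) and -0.33 in the KMT2D mutant (-0.64 to -0.01, unadjusted p = 0.0549 by the F test). CD27 is overlapped by 2 genes: the antisense CD27-AS1 (8 to 55 counts per library) and TAPBPL on the same strand, which encodes a chaperone-like protein of peptide loading (49 to 137 counts). TAPBPL was higher than wild type in the EZH2 mutant by 1.29 (SE 0.19, adjusted p = 7.99e-05) and in the double mutant by 0.80 (SE 0.18, adjusted p = 0.0031), so that reads shared between the genes would move CD27 values.

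MZB1 (pERp1), an endoplasmic reticulum chaperone for antibody assembly, was high in all lines and passed no test in the reported fit. Wild type libraries held 2794, 2121 and 2390 normalised CPM, EZH2 mutant libraries 2737 and 1966, KMT2D mutant libraries 1974, 2494 and 2123 and double mutant libraries 2124, 2029 and 1712. The log2 fold change against wild type was -0.05 in the EZH2 mutant (-0.37 to 0.27), -0.15 for the KMT2D mutant (-0.44 to 0.14) and -0.32 for the double mutant (-0.60 to -0.03, adjusted p = 0.128). MZB1 was called lower in the double mutant than in wild type with upper-quartile factors (-0.43, adjusted p = 0.0236) and with no filter on low counts (-0.37, adjusted p = 0.0223).

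JCHAIN, the joining chain of secreted IgM and IgA, varied within lines. Its levels were 15.28, 15.30 and 22.62 normalised CPM for wild type, 16.39 and 72.48 for the EZH2 mutant, 53.0, 31.55 and 28.72 for the KMT2D mutant, and 59.71, 21.90 and 10.46 for the double mutant. All KMT2D mutant libraries lay above wild type, while the other mutants overlapped it. The log2 fold changes of 1.44 (EZH2 mutant, SE 0.76), 1.11 (KMT2D mutant, SE 0.68) and 0.83 (double mutant, SE 0.72) did not pass (adjusted p = 0.188, 0.417 and 0.456). Fitted on wild type and the KMT2D mutant alone, the change was 1.10 with an adjusted p of 0.00946. Without EZH2 mutant replicate 2 the change in that line was -0.18, and without double mutant replicate 1 it was -0.19. None of the 15 immunoglobulin constant region genes looked for is in the table, so JCHAIN could not be set beside the antibody chains.

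PIM2, a serine/threonine kinase that supports survival and translation in plasma cells, was lower in the double mutant than in the KMT2D mutant. From replicate to replicate, wild type read 106.4, 133.6 and 124.6 normalised CPM, the EZH2 line 114.7 and 64.04, the KMT2D line 109.1, 155.7 and 171.6 and the double mutant line 58.72, 99.70 and 79.04. The double mutant lay below wild type and below the KMT2D mutant without overlap, and the EZH2 mutant overlapped wild type. Against the KMT2D mutant the log2 fold change was -0.89 (SE 0.23, adjusted p = 0.00612), and the call held in all 19 alternatives, from -1.08 to -0.71. Against wild type it was -0.64 (SE 0.23, adjusted p = 0.0553), just short of the threshold of 0.05, and 12 of 19 alternatives called it, DESeq2 among them (adjusted p = 0.0285). The 12 include the fits without KMT2D mutant replicate 1 or either EZH2 mutant library, which are outside that comparison. In the EZH2 mutant the change against wild type was -0.50 (adjusted p = 0.163), and it was called without EZH2 mutant replicate 1 (-0.92, adjusted p = 0.028) and with no filter (-0.55, adjusted p = 0.0153). In the order of means (KMT2D mutant 145.4 ± 32.5, wild type 121.5 ± 13.9, EZH2 mutant 89.4 ± 35.8 and double mutant 79.2 ± 20.5) no neighbours differed past the threshold.

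**Figure D2:**
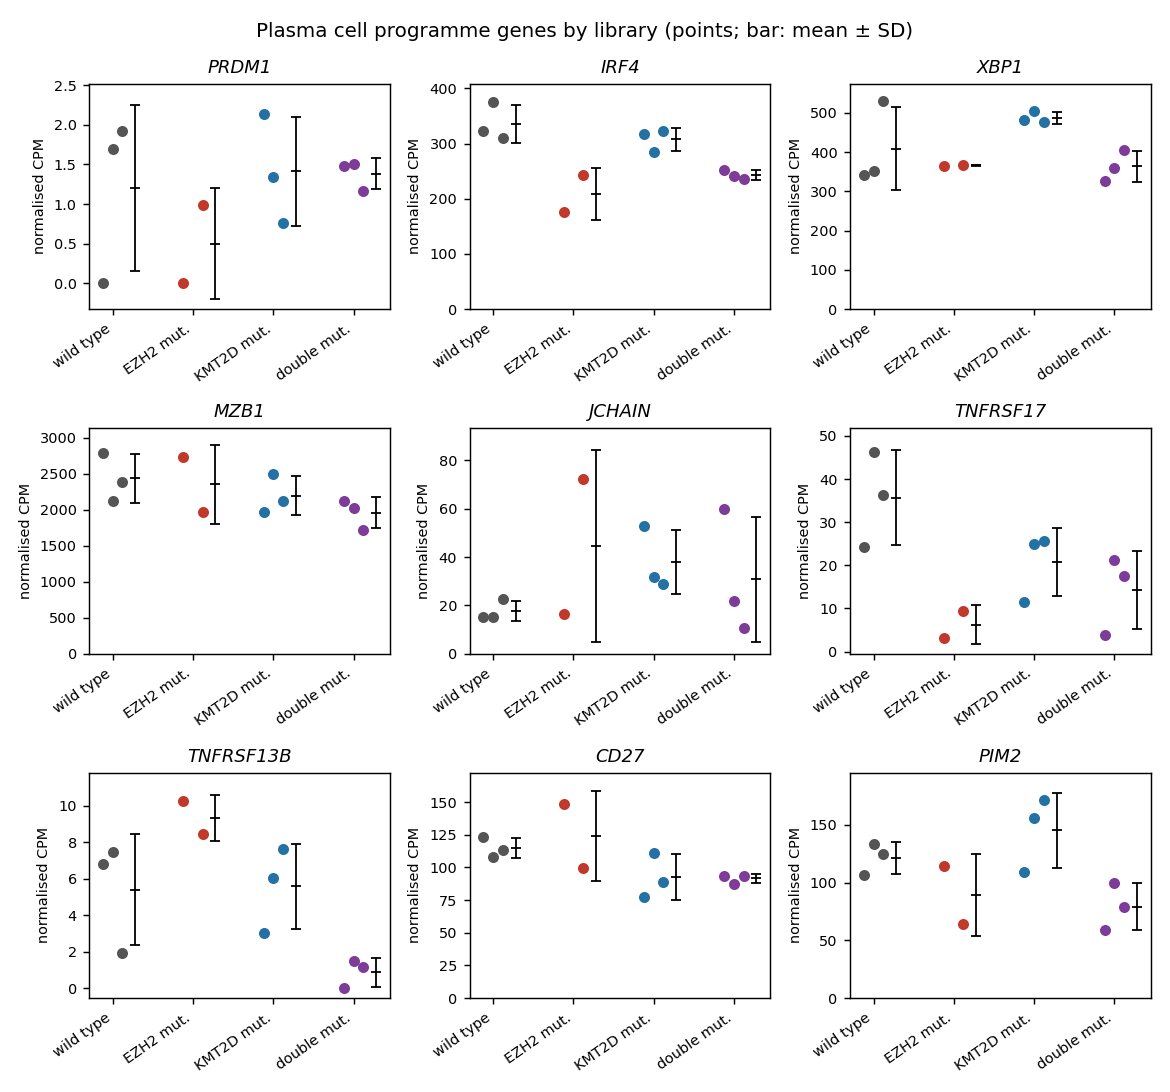
Normalised CPM of 9 of the 10 genes by library (points) in the 4 lines, with the mean and SD of each line as bars; SDC1 is left out because it had no count. IRF4 is lower in all 5 libraries with EZH2 Y646N than in the 6 others, and JCHAIN spreads widely within the EZH2 and double mutants.

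The sister kinase PIM1, also a target of cytokine signalling, was called lower in all 3 mutants, with mean levels of 43.7 ± 1.53 CPM in wild type, 14.9 ± 0.743 in the EZH2 mutant, 23.6 ± 4.72 for the KMT2D mutant and 18.5 ± 5.80 for the double mutant. Its log2 fold changes against wild type were -1.54 (SE 0.27, adjusted p = 0.000357), -0.90 (SE 0.21, adjusted p = 0.0088) and -1.21 (SE 0.22, adjusted p = 0.000641). PIM3, the third member of the family, passed in none of these comparisons.

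Counted over the 8 tested genes, every call made between lines was lower. In the EZH2 mutant against wild type 2 of 8 were lower (IRF4 and TNFRSF17) and none higher, where 15.1% of the 8813 genes tested were called lower and 17.1% higher. In the KMT2D mutant against wild type none passed, also at an unadjusted p under 0.05 and by DESeq2 or limma-voom, with 4.48% of all genes lower and 3.18% higher. In the double mutant against wild type 2 of 8 were lower (IRF4 and TNFRSF13B), with 11.6% of all genes lower and 12.1% higher. Against the EZH2 mutant 1 of 8 was lower (TNFRSF13B), with 1.58% lower and 0.715% higher overall. Against the KMT2D mutant 4 of 8 were lower (IRF4, XBP1, PIM2 and TNFRSF13B), with 20.8% lower and 21.2% higher overall. The interaction was called for none of the 8, with 1 at an unadjusted p under 0.05 (TNFRSF13B) and none by DESeq2 or limma-voom, while 1.52% of all genes had a negative and 1.5% a positive call.

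The members' median log2 fold change was -0.39 in the double mutant against wild type, where 7 of 8 were below 0 and the median of all tested genes was -0.01. Against the KMT2D mutant it was -0.38, also with 7 of 8 below 0 and -0.02 over all genes. In the EZH2 mutant it was -0.11 against -0.04 over all genes, and in the KMT2D mutant -0.05 against 0.00. Comparisons with wild type share its 3 libraries, and those of the double mutant share the double mutant's, so that these counts are not independent. Scaling by the upper quartile moved the median of all genes by -0.164 in the EZH2 mutant and by -0.114 in the double mutant against wild type, and by -0.147 in the double against the KMT2D mutant. It turned 1511 higher and 1335 lower calls into 1015 and 1762, 1068 and 1019 into 728 and 1318, and 1864 and 1831 into 1342 and 2300, in that order. With it 6 members were called lower in the double mutant than in wild type.

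**Figure D3:**
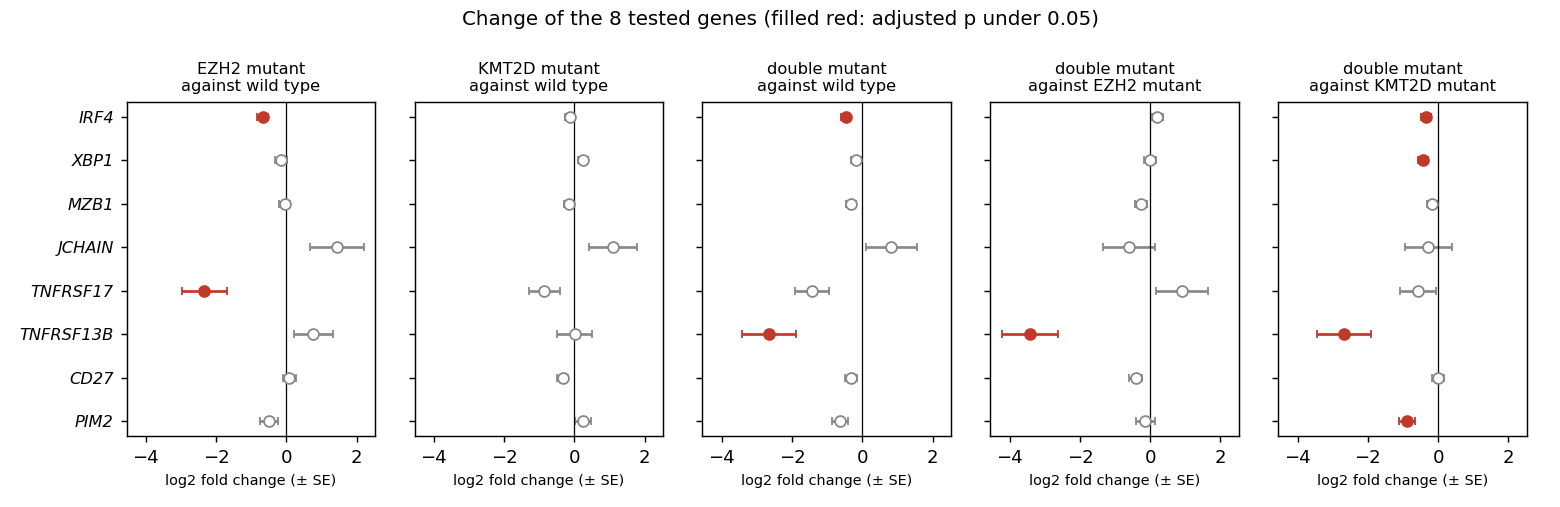
Fitted log2 fold change and its SE for the 8 tested genes in the 5 comparisons between lines; filled red points have an adjusted p under 0.05. The filled points all lie below 0, with TNFRSF17 at -2.34 in the EZH2 mutant and TNFRSF13B at -2.66, -3.43 and -2.68 in the 3 comparisons of the double mutant.

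Among genes expressed at 10 CPM or more on average, those whose changes over the 3 mutant lines were nearest to IRF4 were SARS1 (root mean square difference of log2 fold change 0.036), C21orf58 (0.039) and MAG (0.047), of 6467 compared. Nearest to TNFRSF17 were LRFN1 (0.2), BBC3 (0.238) and BEST3 (0.245), and nearest to TNFRSF13B were PDIA5 (0.465), RIPOR2 (0.597) and HK1 (0.66), of 6468. PDIA5, a protein disulfide isomerase, had fitted log2 changes of 0.39, 0.17 and -3.35 in the EZH2, KMT2D and double mutants. Likeness over 3 lines is a description and carries no test.

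The transcription factors that oppose plasma cell formation had calls in both directions in the single mutants. Of 13 tested members of 15 listed, 4 were higher and 2 lower in the EZH2 mutant, 2 higher and 1 lower in the KMT2D mutant, and none higher and 3 lower in the double mutant, each against wild type (median log2 fold change -0.20, 0.15 and -0.21, beside -0.04, 0.00 and -0.01 over all genes). The shares of all genes were 17.1% higher and 15.1% lower in the EZH2 mutant, 3.18% and 4.48% in the KMT2D mutant, and 12.1% and 11.6% in the double mutant. BCL6, the germinal centre repressor of PRDM1, fell by 1.55 on the log2 scale in the EZH2 mutant (SE 0.19, adjusted p = 9.42e-06) and by 0.95 in the double mutant (SE 0.15, adjusted p = 0.000166), from 118.6 ± 14.4 CPM in wild type. SPIB, an Ets factor, rose by 1.10 in the EZH2 mutant (SE 0.24, adjusted p = 0.00187) and fell by 1.08 in the KMT2D mutant (SE 0.24, adjusted p = 0.00736). ID3, an inhibitor of E proteins, rose by 0.48 in the EZH2 mutant (SE 0.14, adjusted p = 0.0116). In the lines with lower BCL6, PRDM1 had 0 to 3 counts per library. Under upper-quartile scaling the counts became 1 higher and 4 lower in the EZH2 mutant, beside 1015 and 1762 of all 8813 genes. Without EZH2 mutant replicate 1, which leaves 1 library in that line, fewer genes passed there, in this list as over all genes.

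Factors that act with the programme had calls in both directions in the EZH2 and double mutants. Of 12 tested members of 16, 1 was higher and 3 lower in the EZH2 mutant (17.1% and 15.1% of all genes), none higher and 2 lower in the KMT2D mutant (3.18% and 4.48%), and 1 higher and 3 lower in the double mutant (12.1% and 11.6%). The medians were -0.15, -0.06 and 0.04, beside -0.04, 0.00 and -0.01 over all genes. RELB, a subunit of the alternative NF-kB pathway, was called lower in all 3 mutants (-0.77, -0.70 and -0.60; adjusted p = 0.00106, 0.00202 and 0.00292). STAT6, which carries IL-4 signals, rose in the EZH2 mutant (0.80, adjusted p = 0.00083) and the double mutant (0.51, adjusted p = 0.0134). POU2AF1 (OCA-B), the coactivator of octamer factors, fell in the double mutant (-0.54, SE 0.12, adjusted p = 0.00282), beside 0.00 in the EZH2 mutant and 0.19 in the KMT2D mutant, neither of which passed. POU2F2 (Oct-2) was lower in the KMT2D mutant (-1.18, SE 0.16, adjusted p = 0.00015).

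Several of the KMT2D mutant's calls shared a chromosome arm. Of the 8 genes of the pathway lists called lower there, 5 (POU2F2, RELB, SPIB, PPP1R15A and KDELR1) lie on chromosome 19 from ZNF383 to the end of the long arm. The 303 tested genes of that stretch had a median log2 fold change of -0.81 in the KMT2D mutant against wild type, with 187 called lower and none higher; whether this sets the 5 calls was not tested. The medians of the stretch were 0.17 in the EZH2 and 0.17 in the double mutant. None of the 10 plasma cell genes is on chromosome 19.

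The plasma cell surface list had 7 tested members of 14, and SLAMF7, CD28, GPRC5D and CD44 had no count. Against wild type 2 were higher and 1 lower in the EZH2 mutant (17.1% and 15.1% of all genes), 2 higher and none lower in the KMT2D mutant (3.18% and 4.48%), and 1 higher and none lower in the double mutant (12.1% and 11.6%). The medians were -0.37, 0.45 and -0.30, beside -0.04, 0.00 and -0.01 over all genes. ITGB7, an integrin chain, rose in the EZH2 mutant (0.84, SE 0.17, adjusted p = 0.000827), as did the tetraspanin CD63 in the EZH2 and double mutants (0.54 and 0.55; adjusted p = 0.00475 and 0.00255). CXCR4, the chemokine receptor that holds plasma cells in bone marrow, fell in the EZH2 mutant (-0.90, SE 0.23, adjusted p = 0.00878). CD9, another tetraspanin, had 78 counts in the KMT2D mutant, 10 in wild type, 3 in the double mutant and 1 in the EZH2 mutant, and rose by 2.90 in the KMT2D mutant (SE 0.53, adjusted p = 0.00147). It read at most 2.04 CPM in any library of the other lines and at least 9.40 in the KMT2D mutant. CD9 thus passed the filter on low counts only through the KMT2D mutant, and its calls against that line are no independent support. Between the double and the KMT2D mutant all 7 passed, 5 lower (CD9 among them) and 2 higher, where 20.8% of all genes were lower and 21.2% higher. Without EZH2 mutant replicate 1, which leaves 1 library in that line, fewer genes passed there, in the surface list as over all genes.

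Among ligands, co-receptors and adaptors of the receptors, the ligand genes TNFSF13 (APRIL) and TNFSF13B (BAFF) had no count. Of 10 tested members of 14, 2 were higher and 3 lower in the EZH2 mutant (17.1% and 15.1% of all genes), 1 higher and 1 lower in the KMT2D mutant (3.18% and 4.48%), and 1 higher and none lower in the double mutant (12.1% and 11.6%). The medians were -0.28, 0.14 and 0.01, beside -0.04, 0.00 and -0.01 over all genes. TNFRSF13C (BAFF receptor) moved opposite to TNFRSF17 in the EZH2 mutant, from 10.96 ± 1.64 CPM in wild type to 23.4 ± 0.159, a log2 fold change of 1.11 (SE 0.26, adjusted p = 0.0032), and was also higher in the double mutant (0.86, SE 0.23, adjusted p = 0.0109). The adaptor TRAF5 fell in the EZH2 mutant (-0.76, adjusted p = 0.0171) and rose in the KMT2D mutant (0.80, adjusted p = 0.00541). TRAF6 had 30 counts in wild type and none in the EZH2 mutant, where it was at least 4.71-fold lower, taking 3 counts over the group as the limit. CAMLG, which binds TACI, fell in the EZH2 mutant (-0.57, SE 0.19, adjusted p = 0.0304). With 1 library of another line left out, 2 to 5 genes of this list passed in the EZH2 mutant, with 2 when wild type replicate 3 was dropped. That drop also took the calls over all genes from 1511 higher and 1335 lower to 1188 and 1052. Leaving out either EZH2 mutant library, which leaves 1 in that line, made fewer genes pass, in this list as over all genes.

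The secretory pathway genes listed with XBP1 were more often higher than lower in both lines with EZH2 Y646N. XBP1 itself had passed no test against wild type there, and the list was not split by which genes depend on XBP1. Of 45 tested members of 56, 19 were higher and 5 lower in the EZH2 mutant (median 0.25), none higher and 2 lower in the KMT2D mutant (median -0.09), and 13 higher and 3 lower in the double mutant (median 0.23), beside medians of -0.04, 0.00 and -0.01 over all genes. Over all genes tested, 17.1% were higher and 15.1% lower in the EZH2 mutant, 3.18% and 4.48% in the KMT2D mutant, and 12.1% and 11.6% in the double mutant. The calcium-binding chaperone CALR rose by 1.41 in the EZH2 mutant (SE 0.15, adjusted p = 2.62e-06) and by 0.77 in the double mutant (SE 0.14, adjusted p = 0.000539). PDIA4, a disulfide isomerase, rose by 1.16 and 0.59, and FKBP11, a prolyl isomerase of secretory cells, by 1.09 and 0.72. EDEM1, which sends misfolded glycoproteins to degradation, went the other way, at -1.14 and -1.18 (SE 0.18 and 0.16; adjusted p = 0.000144 and 2.87e-05). HSPA5 (BiP), the main chaperone of the compartment, rose by 1.07 in the EZH2 mutant (adjusted p = 0.0166) and fell by 1.11 in the KMT2D mutant (adjusted p = 0.0473). It was named after its values were seen. HSPA5 had only 8 to 39 counts per library, beside 1156 to 3995 for CALR. Whether the counting missed most of its reads, as it could for SPCS1, was not tested. Between the double and the KMT2D mutant 20 were higher and 7 lower, in the comparison in which XBP1 was lower, beside 21.2% and 20.8% of all genes. With upper-quartile scaling the counts were 16 higher and 7 lower in the EZH2 mutant, 7 and 4 in the double mutant, and 15 and 9 between the double and KMT2D mutants. Over all genes that scaling also gave fewer higher and more lower calls, as given above.

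**Figure D4:**
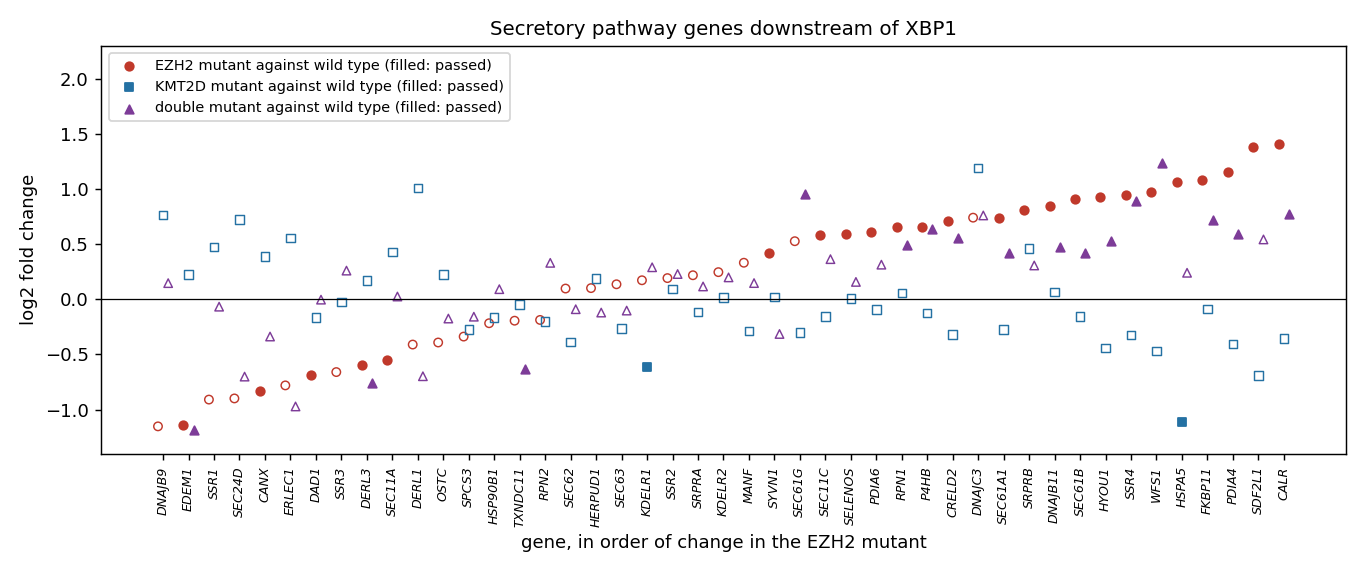
Log2 fold change against wild type of the 45 tested secretory pathway genes in the EZH2 mutant (circles), KMT2D mutant (squares) and double mutant (triangles), ordered by the EZH2 mutant; filled symbols passed the test. Filled circles and triangles lie mostly above 0 (19 and 13 above, 5 and 3 below), and 2 squares are filled, both below 0.

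The list for the unfolded protein response, the signalling system that XBP1 belongs to, holds its sensors and factors that act downstream of them. Of 10 tested members of 12, 3 were lower in the EZH2 mutant (15.1% of all genes), 1 lower in the KMT2D mutant (4.48%) and none in the double mutant (11.6%); none was higher in these comparisons, beside 17.1%, 3.18% and 12.1% of all genes. The medians were -0.80, 0.08 and -0.17, beside -0.04, 0.00 and -0.01 over all genes. EIF2AK3 was the only sensor of the list called against wild type, with ERN1 at an adjusted p of 0.0852 and ATF6B at 0.393 in the EZH2 mutant. The sensor ATF6 was too low to be tested, at 0 to 6 counts per library. In the EZH2 mutant EIF2AK3 (PERK), a kinase, fell by 1.61 (SE 0.44, adjusted p = 0.00903), resting on 2 and 14 counts in the 2 libraries of that line. Of its downstream factors, DDIT3 (CHOP) fell there by 0.96 (SE 0.19, adjusted p = 0.000894) and PPP1R15A (GADD34) by 0.86 (SE 0.26, adjusted p = 0.0171). ATF4, another of them, did not pass there (-0.38, adjusted p = 0.0558). Whether these changes are linked was not tested. PPP1R15A also fell in the KMT2D mutant (-1.01, adjusted p = 0.00541) and stood at 0.27 in the double mutant (adjusted p = 0.359). In the double mutant 3 of the 10 had an unadjusted p under 0.05, and upper-quartile scaling called 2 lower there and 6 lower in the EZH2 mutant. Over all genes that scaling also raised the lower calls, from 1019 to 1318 and from 1335 to 1762 in that order.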

How the data were processed

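RNA of 4 OCI-Ly7 lines was measured by MARS-seq, a 3′ counting method with barcoded cDNA, on a NextSeq500, per the labels' protocols. The deposited table gives counts per gene, which the authors call corrected without saying for what; per the submitters' processing notes the tools were Trim Galore 0.6.0, cutadapt 1.15, FastQC, STAR 2.7.0f and DESeq2, the last without its role. The counter, genome build, annotation and strand setting are not given in the sources used here. The columns named DM were taken as the double mutant of the series' design.

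Differences were tested with edgeR 4.0.16 (quasi-likelihood F test, robust, TMM factors) on R 4.3.3, with 1 term per line over all 11 libraries. Of 28278 genes, 8813 passed the filter (filterByExpr, minimum count 10) and 13188 were at 0 in every library. P-values were adjusted by Benjamini-Hochberg over the tested genes, with a threshold of 0.05. SEs come from the F statistic, and the 95% intervals are approximate, at 1.96 SE on either side. This normal multiplier makes them narrower than the F test allows, so an interval that just leaves out 0 is no call. Counting intervals are exact binomial (Clopper-Pearson). In the deepest library 3 counts are 0.965 CPM and in the shallowest 2.68 CPM. The fit was tested on simulated data. The alternatives tried were scaling by RLE or by the upper quartile, testing all 15090 genes with a count, keeping the 6525 with a mean of 10 CPM, DESeq2 1.42.0, limma-voom (limma 3.58.1), a replicate block, the compared lines alone, and each library left out. The members and gene lists were chosen with earlier results of these data known. From each list, up to 4 genes were named by the smallest adjusted p against wild type without overlap; the few named otherwise are said to be. Overlaps between genes were read from GENCODE 29 and promoters from RefSeq, where 9 of the 10 genes had an entry; neither need be the annotation the authors counted on. Some listed genes are counted with their list but not reported here by name.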

Additional observations from a re-analysis of the deposited data

Results flagged for a closer look

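For 9 of 34 genes examined (the 8 tested plasma cell genes, 24 genes named from the pathway lists and 2 overlapping genes) the interaction passed, 5 positive and 4 negative, beside 1.5% positive and 1.52% negative over all genes tested. The 24 were named for changes against wild type, which share libraries with the interaction, and the 2 were looked at after values had been seen. In these 9, the difference between lines with and without EZH2 Y646N was not the same in the KMT2D mutant background as in the wild type one. On the log2 scale it was 0.97 for BCL6, -0.98 for ID3, -0.73 for POU2AF1, 0.9 for POU2F2, 2.14 for PPP1R15A and 0.86 for RELB. It was -3.37 for TBC1D27P, the pseudogene that overlaps TNFRSF13B, and -1.06 for TAPBPL, which overlaps CD27. TRAF6 had a fitted value of 6.38, which depends on the prior count because the EZH2 mutant had no TRAF6 count, and is no bound. POU2F2, RELB and PPP1R15A lie on the stretch of chromosome 19 with lower counts in the KMT2D mutant, where the median interaction of the 303 tested genes was 0.80. None of the 8 tested plasma cell genes had a passing interaction.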

How the results depend on the processing

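Of 168 alternatives of the 9 called member results, 143 kept the call and 25 lost it, none with another sign; 39 results without a call gained one in 33 of 730 and changed sign in 39. The alternatives include leaving out libraries of lines outside a comparison. Such a drop reaches the call only through the shared fit, so the 143 overstates how well calls held when a compared library was dropped. Members called were 2, 0, 2, 1, 4 and 0 for the EZH2, KMT2D and double mutants against wild type, the double against the EZH2 and the KMT2D mutant, and the interaction. They became 1 in the EZH2 mutant by limma-voom, 1 in the KMT2D mutant with no filter and with the compared lines alone, and 4, 6 and 5 in the double mutant with RLE factors, upper-quartile factors and no filter. They were 0 for the double against the EZH2 mutant by limma-voom and with the replicate block, and 2 for the interaction with no filter. With the strict filter they were also 0 for the double against the EZH2 mutant, because that filter left TNFRSF13B untested. Leaving out 1 library gave 1 to 2, 0 to 1, 0 to 4, 0 to 1, 1 to 4 and 0 to 1; the 0 against wild type came without wild type replicate 2, and the 1 against the KMT2D mutant without double mutant replicate 1.

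Signs of uncalled values changed as follows, as log2 fold changes. Against wild type, CD27 in the EZH2 mutant was -0.0868 with upper-quartile factors and -0.004 with the strict filter (0.09 in the reported fit), and TNFRSF13B in the KMT2D mutant was -0.0107 with no filter. XBP1 in the double against the EZH2 mutant was 0.0439 with upper-quartile factors, 0.041 with the strict filter and 0.0273 with the compared lines alone. CD27 in the double against the KMT2D mutant was -0.0227 with RLE factors, -0.142 with upper-quartile factors, -0.0241 with no filter, -0.0618 with the strict filter, -0.0063 with the compared lines alone and -0.0242 by DESeq2. With 1 library left out, the EZH2 mutant ranged from -0.27 to 0.076 for XBP1, -0.18 to 2.03 for JCHAIN, -0.30 to 0.10 for MZB1 and -0.20 to 0.31 for CD27. TNFRSF13B in the KMT2D mutant ranged from -0.41 to 0.41, and the double mutant from -0.29 to 0.0632 for XBP1 and -0.19 to 1.25 for JCHAIN. Against the EZH2 mutant the double mutant ranged from -0.0092 to 0.53 for IRF4, -0.10 to 0.10 for XBP1, -1.59 to 1.00 for JCHAIN and -0.50 to 0.27 for PIM2, and against the KMT2D mutant from -1.30 to 0.14 for JCHAIN and -0.12 to 0.14 for CD27. The interaction ranged from -0.29 to 0.14 for MZB1, -0.32 to 0.20 for CD27 and -0.75 to 0.0348 for PIM2. The causes were not tested. Of 791 list counts under alternatives, 671 stayed within 1.5 times.

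Same-numbered libraries had deviations correlated from -0.289 to 0.376, and differently numbered ones from -0.376 to 0.289. Between the KMT2D and double mutants the same-numbered pairs were positive (0.287, 0.206 and 0.0662) and the others negative (-0.239 to -0.00286). Between wild type and the KMT2D mutant the same-numbered pairs were negative (-0.159, -0.241 and -0.0252). Whether same-numbered libraries share a batch was not tested. With the replicate block 2, 0, 3, 0, 4 and 0 members were called. Depth limits PRDM1, SDC1 and TNFRSF13B, each with few counts or none.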
